A study of Mus musculus with 6 samples.

Results

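Complement is a cascade of plasma proteins, most of them made by hepatocytes, that marks microbes and damaged cells for removal. It starts by the classical arm (C1q bound to antibody), the lectin arm (sugar-binding proteins with their proteases) or the alternative arm (slow turnover of C3 amplified by factor B). All 3 arms cleave C3 and feed the terminal arm, which assembles a pore from C5 to C9, while soluble and membrane-bound regulators protect host cells. The account below covers 36 complement genes chosen by name, as components, regulators and receptors, among 12393 genes measured. Of the 36, 31 had at least 1 probe set annotated to that gene alone, and the brightest of these represents the gene.

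The samples were primary mouse hepatocytes on 6 Affymetrix arrays. The 3 transgenic arrays came from Alb/AEG-1 mice, whose hepatocytes overexpress AEG-1, the product of the gene Mtdh, under a transgene named for albumin (Alb), and the 3 wild-type arrays came from control mice. Both genotypes had a mixed B6/CBA background, received no treatment, and their cells were kept on collagen for 24 h before harvest. The arrays are labelled as biological replicates. The sources used here give neither the age of the mice nor whether 1 array stands for 1 animal.

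In transgenic hepatocytes 7 of the 31 measured complement genes rose and 0 fell, by limma with Benjamini-Hochberg adjustment over all genes. Over all 12393 genes tested, 6.83% were called higher and 9.05% lower. At an unadjusted p under 0.05 the counts were 17 of 31 higher and 1 lower, where 13.8% and 15.2% of all genes were. The 7 were C8b, C2, C9, Masp2, C1qc, Mbl2 and C8a, with increases from 1.15-fold to 1.53-fold. They spread over the classical start, C2, the lectin arm and the terminal arm. The only probe set for C4, annotated to both C4a and C4b and thus outside the 31, differed by -0.51. It was called lower (limma adjusted p = 0.00176 over 22626 probe sets, of which 6.66% were called lower). None of the 2 measured alternative arm genes, 9 regulators or 3 receptors was called. The median log2 difference (transgenic minus wild type) was 0.17 over the 31 genes and 0.01 over all genes tested. The 3 arrays of each genotype did not overlap for 21 of the 31 (67.7%), against 34.5% of all genes. Out of the 31 genes, 19 had all transgenic arrays above all wild-type arrays and 2 had them below, against 16.9% and 17.6% of all genes.

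The whole-array values frame these results. Array medians ran from 5.61 to 5.64 on the log2 scale, and correlations across genes from 0.9976 to 0.9982 within a genotype and from 0.9933 to 0.9940 between genotypes. Mtdh rose by 1.92 (SE 0.10) at its brightest probe set. The albumin gene Alb, which defines hepatocytes, stood at 14.70 ± 0.02 in transgenic and 14.69 ± 0.00 in wild-type cells (SD, n = 3).

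**Figure D1:**
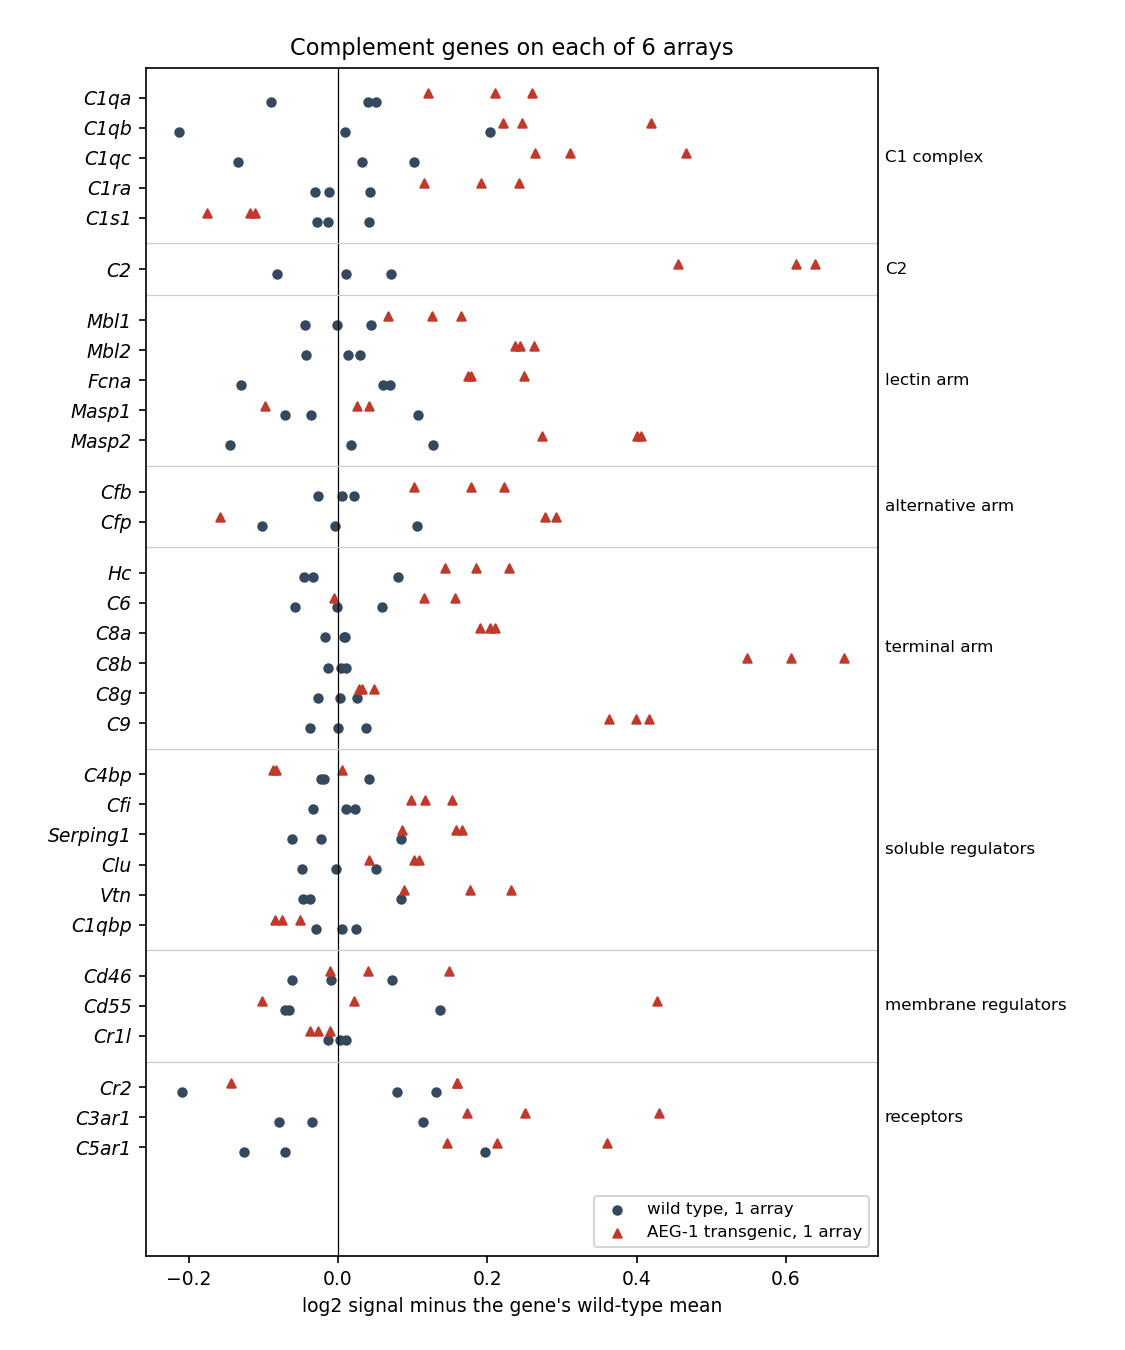
Each point is 1 array, placed by the log2 signal of a complement gene minus that gene's wild-type mean, with transgenic arrays as red triangles and wild-type arrays as dark circles, in rows grouped by role. The triangles of C2, C8b and C9 lie farthest to the right of their circles, while those of C1s1 lie to the left.

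Promoter sequences are shown for the 3 terminal arm genes that rose. Whether these genes share control was not tested. The windows run from 250 bases before to 50 bases after the start given by RefSeq, in build GRCm38.p6 of the C57BL/6J genome, so CBA alleles in these mice may differ. Capitals mark exact matches to 1 of 6 short motifs, on either strand.
C8b, chr4:104766067-104766366, plus strand: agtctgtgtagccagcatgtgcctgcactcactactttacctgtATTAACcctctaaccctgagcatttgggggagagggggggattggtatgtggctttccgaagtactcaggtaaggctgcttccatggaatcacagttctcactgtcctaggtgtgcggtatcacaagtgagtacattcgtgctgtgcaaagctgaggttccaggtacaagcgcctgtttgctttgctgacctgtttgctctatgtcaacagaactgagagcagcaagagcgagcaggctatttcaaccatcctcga
C8a, chr4:104876349-104876648, minus strand: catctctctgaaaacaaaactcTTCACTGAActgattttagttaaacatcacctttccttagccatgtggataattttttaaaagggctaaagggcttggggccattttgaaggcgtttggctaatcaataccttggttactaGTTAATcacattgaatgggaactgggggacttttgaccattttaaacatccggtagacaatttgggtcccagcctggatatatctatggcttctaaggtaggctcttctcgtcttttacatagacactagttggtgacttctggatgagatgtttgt
C9, chr15:6445096-6445395, plus strand: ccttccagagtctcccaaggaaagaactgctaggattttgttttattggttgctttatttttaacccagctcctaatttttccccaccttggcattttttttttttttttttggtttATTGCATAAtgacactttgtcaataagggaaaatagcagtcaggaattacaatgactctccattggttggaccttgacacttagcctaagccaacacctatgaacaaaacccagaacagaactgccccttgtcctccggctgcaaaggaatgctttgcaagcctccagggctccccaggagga

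The capitals in C8b are the reverse complement of GTTAAT, the core of a site for the liver factor HNF1, at -206 from the start site. C8a holds the same core at -107 and a match to TTCNNNGAA, the STAT-binding GAS element, at -228. In C9 they mark the reverse complement of TTNNGNAAT, an IL-6 response element bound by C/EBP factors, at -133. Promoters were found for 24 of the 31 measured genes and for 6 of the 7 that rose. A gene was counted where any of its promoter windows held a match, whereas shares over all promoters count single windows, so these units differ. The HNF1 core lay in 9 of the 24 genes, 2 of the 6 that rose and 7 of the 18 not called. Of 32851 promoters searched, 7.10% hold it. The GAS letters lay in 4 of the 24 (2 of the 6 and 2 of the 18), where 8.30% of all promoters hold them. The IL-6 response letters lay in 6 of the 24 (1 of the 6 and 5 of the 18), against 11.5% of all promoters. The interferon element core GAAANNGAA lay in 3 of the 24 (0 of the 6 that rose), against 8.56%. For NF-kB, the form GGGNNTTCC lay in 2 of the 24 (0 of the 6), against 5.82%, and GGGNNNTCC in 4 (1 of the 6, C1qc), against 17.8%, and these 2 forms can overlap at a site. A letter match describes the window only.

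The classical arm begins with C1, a complex of the recognition protein C1q, built from chains encoded by C1qa, C1qb and C1qc, and of the proteases C1r and C1s, encoded by C1ra and C1s1. C1qc rose, with log2 values of 6.68, 6.53 and 6.48 on the transgenic arrays and 6.25, 6.08 and 6.32 on the wild-type arrays. All transgenic arrays lay above all wild-type arrays, and the difference was 0.35 (SE 0.08, 1.27-fold, limma adjusted p = 0.0260). The other C1q chains did not pass. C1qa stood at 7.06 ± 0.07 against 6.87 ± 0.08 and C1qb at 6.95 ± 0.11 against 6.66 ± 0.21 (SD, n = 3). C1qa differed by 0.20 (95% interval 0.04 to 0.35, limma adjusted p = 0.0850) and C1qb by 0.30 (0.05 to 0.54, limma adjusted p = 0.111), both without overlap between the genotypes. The 3 probe sets of C1qb gave 0.30, 0.18 and 0.34, and none passed when every probe set was tested.

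The C1 proteases, encoded side by side on chromosome 6, differed in opposite directions without passing. C1ra stood at 10.67 ± 0.06 against 10.49 ± 0.04 and C1s1 at 10.98 ± 0.04 against 11.11 ± 0.04 (SD, n = 3 per genotype). Their differences were 0.18 (0.05 to 0.32, limma adjusted p = 0.0727) and -0.13 (-0.26 to -0.01, limma adjusted p = 0.140). C1s1 was the member with the most negative difference, and its genotypes did not overlap. The change of C1ra minus that of C1s1, taken within each array, was 0.32, without overlap between the genotypes (two-sided exact permutation p = 0.1, the smallest that 3 arrays against 3 allow).

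C2 and C4 form the enzyme that cleaves C3 in both the classical and the lectin arm. C2 rose, at 9.72, 9.75 and 9.56 on the transgenic arrays and 9.12, 9.18 and 9.02 on the wild-type arrays. The genotypes were clearly apart, and the difference was 0.57 (SE 0.07, 1.48-fold, limma adjusted p = 0.00150). Cfb, the gene next to C2 on chromosome 17, encodes factor B, the counterpart of C2 in the alternative arm. Its values were 11.60, 11.65 and 11.53 against 11.43, 11.45 and 11.40, which do not overlap, but the difference of 0.17 (0.04 to 0.30) did not pass (limma adjusted p = 0.0872). The change of Cfb minus that of C2 was -0.40, again without overlap (exact permutation p = 0.1).

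C4 itself could not be counted, because its only probe set is annotated to both C4a and C4b, near-identical copies, and stayed out of the 31. That shared probe set went the other way from C2. It read 12.02, 12.03 and 11.93 on the transgenic arrays and 12.50, 12.59 and 12.45 on the wild-type arrays. Every transgenic value was below every wild-type value. The difference was -0.51 (SE 0.06, limma adjusted p = 0.00176 over 22626 probe sets, of which 6.66% were called lower). It passed under each of 12 alternative settings, at -0.55 to -0.48. Which of the 2 genes carries the signal cannot be told apart from these arrays.

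The lectin arm uses mannose-binding lectins (Mbl1, Mbl2) and ficolin A (Fcna) to recognise sugars, and the proteases encoded by Masp1 and Masp2 to cleave C4 and C2. Mbl2 rose, at 12.61, 12.61 and 12.63 against 12.38, 12.33 and 12.40. The transgenic arrays were tightly grouped above the wild-type arrays, with a difference of 0.25 (SE 0.05, 1.19-fold, limma adjusted p = 0.0160). Mbl1 stood at 11.67 ± 0.05 against 11.55 ± 0.04 and Fcna at 7.67 ± 0.04 against 7.47 ± 0.11 (SD, n = 3). Mbl1 differed by 0.12 (-0.01 to 0.25, limma adjusted p = 0.211) and Fcna by 0.20 (0.04 to 0.36, limma adjusted p = 0.0954), both without overlap.

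Masp2 rose at both of its probe sets, by unequal amounts. The brighter gave 10.30, 10.30 and 10.17 against 9.92, 10.03 and 9.75, a difference of 0.36 (SE 0.08, 1.28-fold, limma adjusted p = 0.0209). The dimmer gave 8.45, 7.90 and 8.27 against 6.95, 6.72 and 6.76, a difference of 1.40 (SE 0.13). That difference passed when all 20380 probe sets with 1 symbol were tested (limma adjusted p = 0.000419, with 5.56% of probe sets called higher). It was the largest at any probe set of the 31 genes. The gene makes the protease MASP-2 and a short form, MAp19, and which transcripts each probe set reads was not resolved here. Masp2 gave 0.88 with the mean of its probe sets. Masp1 stood at 10.23 ± 0.08 against 10.24 ± 0.09 (SD, n = 3), a difference of -0.01 (-0.17 to 0.15, limma adjusted p = 0.952). Its other 4 probe sets ranged from -0.18 to 0.18.

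**Figure D2:**
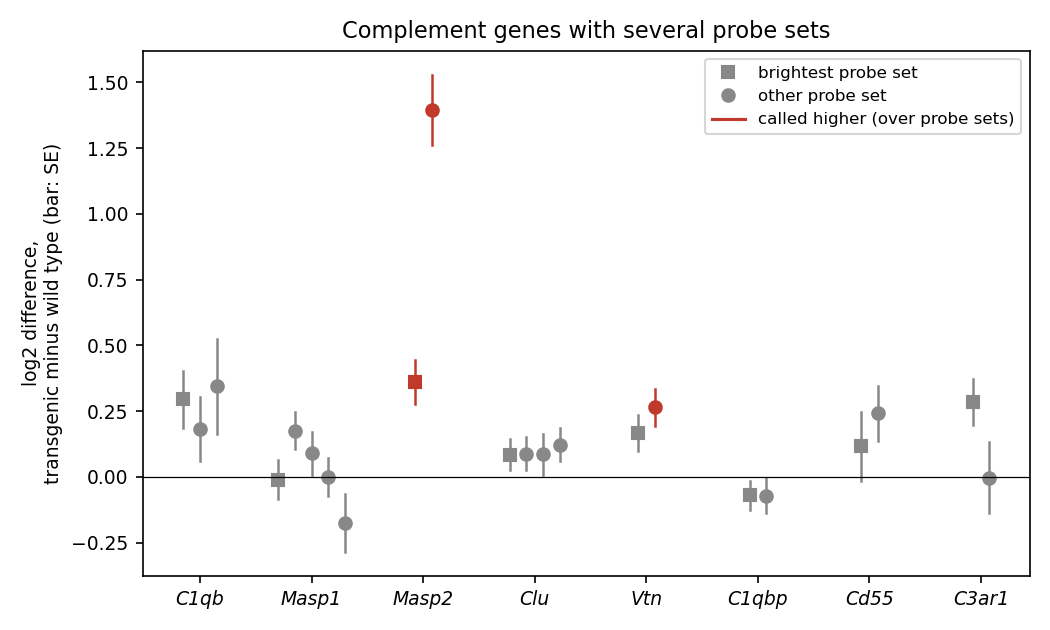
Log2 differences (transgenic minus wild type, bars show the SE) of every probe set for the 8 complement genes with several, the brightest as a square. The second Masp2 probe set, at 1.40, stands far above the rest, while the 4 of Clu lie together between 0.08 and 0.12.

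The alternative arm was measured through Cfb, given above, and Cfp, which encodes properdin, a stabiliser of the alternative C3-cleaving enzyme. Cfp stood at 5.44 ± 0.26 against 5.31 ± 0.10 (SD, n = 3), under the overall median of 5.63, and differed by 0.14 (-0.15 to 0.42, limma adjusted p = 0.524). No gene of this arm passed (0 of 2, and 1 at an unadjusted p under 0.05). C3, Cfd (factor D) and C7 have no probe set of their own in the annotation used and are not analysed here.

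In the terminal arm 3 of 6 measured genes rose. C8b, the beta chain of C8, had the largest difference of the 31 genes at the brightest probe sets. It read 11.75, 11.82 and 11.69 on the transgenic arrays and 11.13, 11.14 and 11.15 on the wild-type arrays. The wild-type arrays were nearly equal, and all lay below the transgenic ones. The difference was 0.61 (SE 0.06, 1.53-fold, limma adjusted p = 0.000330).

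C9, whose protein lines the wall of the pore, rose as well. Its values were 13.70, 13.75 and 13.73 against 13.34, 13.30 and 13.37, again apart, with a difference of 0.39 (SE 0.05, 1.31-fold, limma adjusted p = 0.00213). C8a, the alpha chain of C8, read 12.69, 12.67 and 12.69 against 12.47, 12.49 and 12.49. The spread within each genotype was small beside the difference of 0.20 (SE 0.05, 1.15-fold, limma adjusted p = 0.0310).

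C8g, the gamma chain, was at 13.22 ± 0.01 against 13.19 ± 0.03 (SD, n = 3), a difference of 0.04 (-0.08 to 0.15, limma adjusted p = 0.702). C8b and C8a are adjacent on chromosome 4 and face each other, and the change of C8b exceeded that of C8a by 0.41, without overlap between the genotypes (exact permutation p = 0.1). Hc, which encodes C5, the first protein of the pore, stood at 12.36 ± 0.04 against 12.17 ± 0.07 (SD, n = 3) and differed by 0.19 (0.05 to 0.32, limma adjusted p = 0.0752), without overlap. C6, also a pore component, stood at 10.37 ± 0.08 against 10.28 ± 0.06 and differed by 0.09 (-0.06 to 0.24, limma adjusted p = 0.423), with overlap.

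Among 7 adjacent pairs of measured members, 3 differed in change without overlap, namely Cfb with C2, C8b with C8a and C1ra with C1s1. Of all single genes tested, 34.5% did not overlap. No share over other adjacent pairs was computed, so the count of 3 cannot be set against a background. After adjustment over the 7 pairs each of these 3 had an exact permutation p of 0.233. The smallest unadjusted p that 3 arrays against 3 allow is 0.1, so no pair could pass the threshold. The permutation test therefore cannot decide whether the members of a pair differed in change. The other 4 pairs, which join Cd46 with Cr1l, Cr1l with Cr2, C1qb with C1qc and C1qc with C1qa, overlapped (exact permutation p from 0.2 to 0.9).

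**Figure D3:**
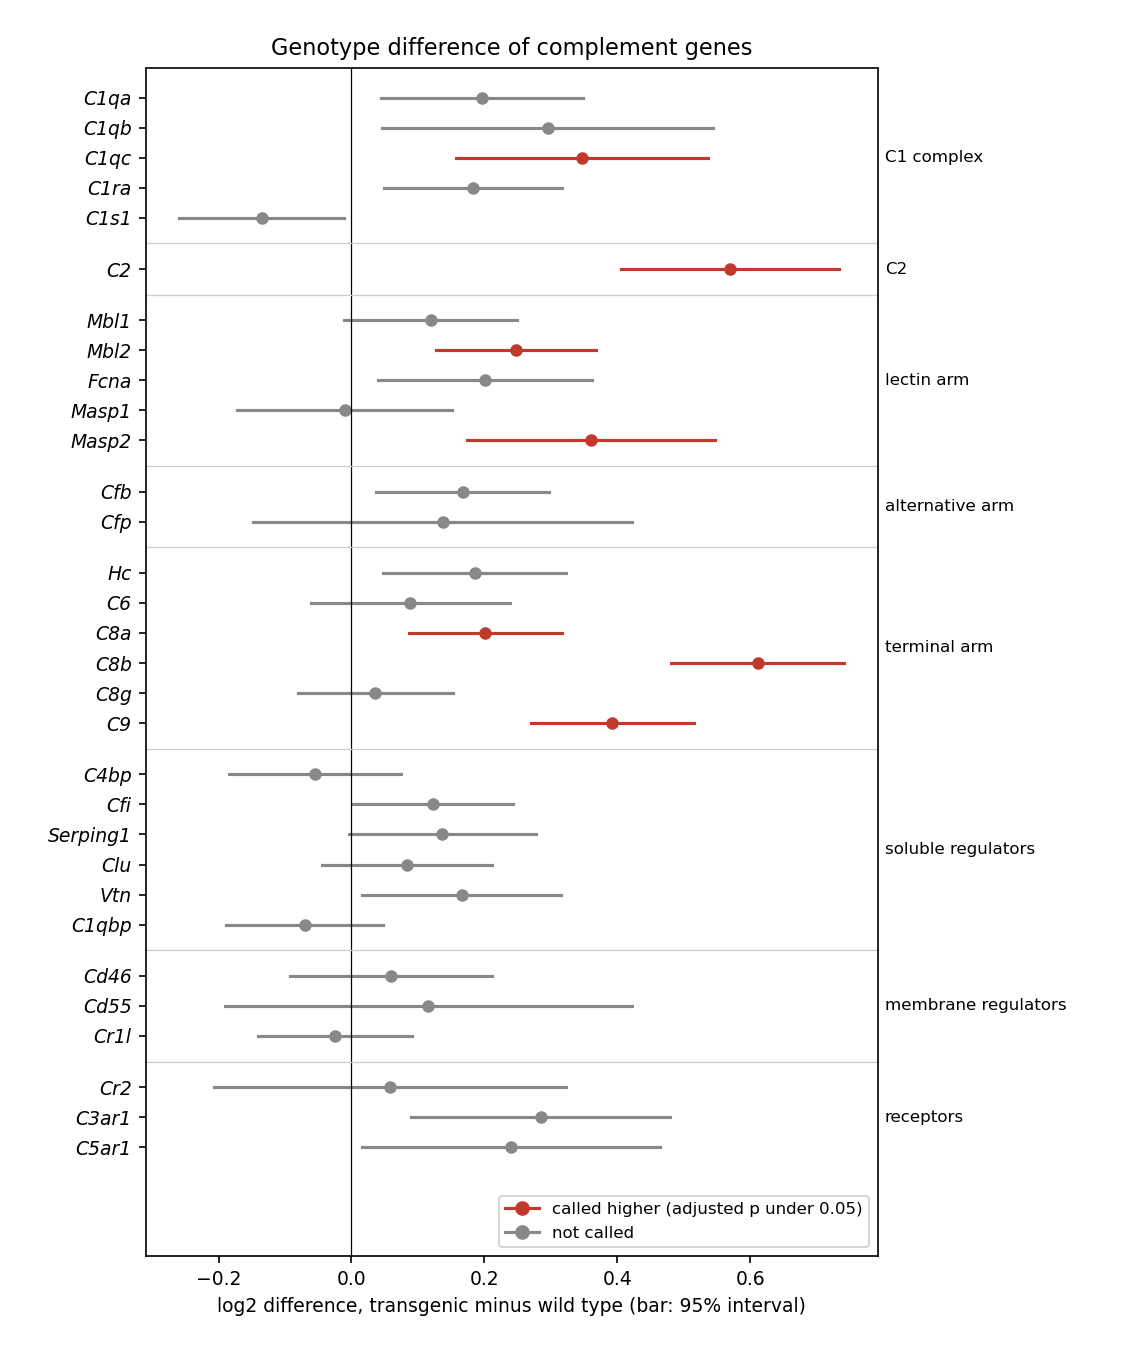
Log2 difference (transgenic minus wild type) of each of the 31 complement genes with its 95% interval from limma, in rows grouped by role, with the 7 called higher in red. The red points lie in the C1, C2, lectin and terminal rows, and the regulators sit between -0.07 and 0.17.

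The soluble regulators were not called (0 of 6, and 2 at an unadjusted p under 0.05 by limma). The group includes Cfi, the protease that degrades C3b and C4b, and Serping1, the inhibitor of C1 and MASP proteases. Cfi stood at 13.13 ± 0.03 against 13.01 ± 0.03 and Serping1 at 12.77 ± 0.04 against 12.64 ± 0.08 (SD, n = 3). Cfi differed by 0.12 (limma adjusted p = 0.166) and Serping1 by 0.14 (limma adjusted p = 0.184), both without overlap. Vtn, vitronectin, which blocks pore assembly, had the smallest p of the group. It read 13.44, 13.38 and 13.29 against 13.16, 13.29 and 13.17, where the highest wild-type array came just under the lowest transgenic one. The difference was 0.17 (0.02 to 0.32, limma adjusted p = 0.135). Its second probe set gave 0.26 and passed when every probe set was tested (limma adjusted p = 0.0484).

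The other soluble regulators were bright in both genotypes. Clu, clusterin, which also binds the forming pore, stood at 13.56 against 13.48 and differed by 0.08 (-0.05 to 0.21) and its 4 probe sets by 0.08 to 0.12. C4bp, the cofactor that turns Cfi on C4b, stood at 12.37 against 12.43 and differed by -0.05 (-0.18 to 0.07), and C1qbp, a mitochondrial protein that can bind C1q, stood at 12.71 against 12.78 and differed by -0.07 (-0.19 to 0.05). None of these 3 passed (limma adjusted p = 0.378, 0.582 and 0.418).

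Membrane regulators, which restrain C3-cleaving enzymes on the cell's own surface, were not called (0 of 3, and 0 at an unadjusted p under 0.05 by limma). Cr1l, known as Crry and the main such regulator on mouse cells, had a spread (SD) of 0.01 in each genotype. Its values were 9.18, 9.20 and 9.17 against 9.21, 9.22 and 9.20, a difference of -0.02 (-0.14 to 0.09, limma adjusted p = 0.798). Cd46 and Cd55 were below the overall median in both genotypes. Cd46 had the smallest p of the group, at 5.28, 5.38 and 5.23 against 5.17, 5.23 and 5.31, a difference of 0.06 (-0.09 to 0.21, limma adjusted p = 0.617). Cd55 stood at 3.44 ± 0.28 against 3.33 ± 0.12 (SD, n = 3) and differed by 0.12 (-0.19 to 0.42, limma adjusted p = 0.632). Its second probe set gave 0.24, not called, and 1 transgenic array, at 3.75, stood above all others at the first. Without that array the difference was -0.04.

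The receptors were all dim, under the overall median in both genotypes, and none passed (0 of 3, and 2 at an unadjusted p under 0.05 by limma). C3ar1, the receptor of the C3a fragment, read 5.22, 5.48 and 5.30 against 5.01, 4.97 and 5.16, without overlap. Its difference was 0.28 (0.09 to 0.48, limma adjusted p = 0.0569), but the other probe set of the gene gave 0.00. C5ar1, the receptor of C5a, stood at 4.26 ± 0.11 against 4.02 ± 0.17 (SD, n = 3) and differed by 0.24 (0.02 to 0.46, limma adjusted p = 0.147). Cr2, which binds C3 fragments on B cells, stood at 4.89 ± 0.17 against 4.83 ± 0.18 and differed by 0.06 (-0.21 to 0.32, limma adjusted p = 0.793).

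Set side by side, the median log2 differences were 0.20 for the C1 genes, 0.20 for the lectin arm, 0.15 for the alternative arm, 0.19 for the terminal arm, 0.10 for the soluble regulators, 0.06 for the membrane regulators and 0.24 for the receptors. The corresponding counts called higher were 1 of 5, 2 of 5, 0 of 2, 3 of 6, 0 of 6, 0 of 3 and 0 of 3, besides C2. The probe set shared by C4a and C4b, outside these counts, was lower. Differences between arms were not tested. Within the terminal arm the medians over members were 0.20, 0.21 and 0.17 above the wild-type means on the 3 transgenic arrays and between -0.01 and 0.01 on the wild-type arrays. The lectin arm gave 0.24, 0.17 and 0.18 against -0.04 to 0.03. For the membrane regulators 1 of the 3 transgenic arrays was below 0, at -0.04.

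The calls fell into levels of stability over 16 alternative settings. C2 and C9 passed in all 16, and C8b in the 15 that measured it. Mbl2 passed in 13, Masp2 in 12, C1qc in 11 and C8a in 9. Leaving out 1 array left from 3 to 6 members called higher, with 3 without transgenic replicate 1, 4 without transgenic replicate 2 4 without wild-type replicate 2 and 5 without transgenic replicate 3. C2, C8b and C9 were in each of these counts, whereas C8a was in none of the 6. C1qc was lost without transgenic replicate 1 or 2 or wild-type replicate 1 or 2, Mbl2 without transgenic replicate 1 or 3 or wild-type replicate 2, and Masp2 without transgenic replicate 1 or 2 or wild-type replicate 3. In the other direction, a variance trend together with a robust prior raised the count to 16 higher and 1 lower (C1s1). That setting also called more of all 12393 genes, 1112 higher and 1504 lower in place of 846 and 1121. Testing only genes at or above the median signal gave 12 of 25, where 967 of all 7010 such genes were called higher and 1389 lower.

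**Figure D4:**
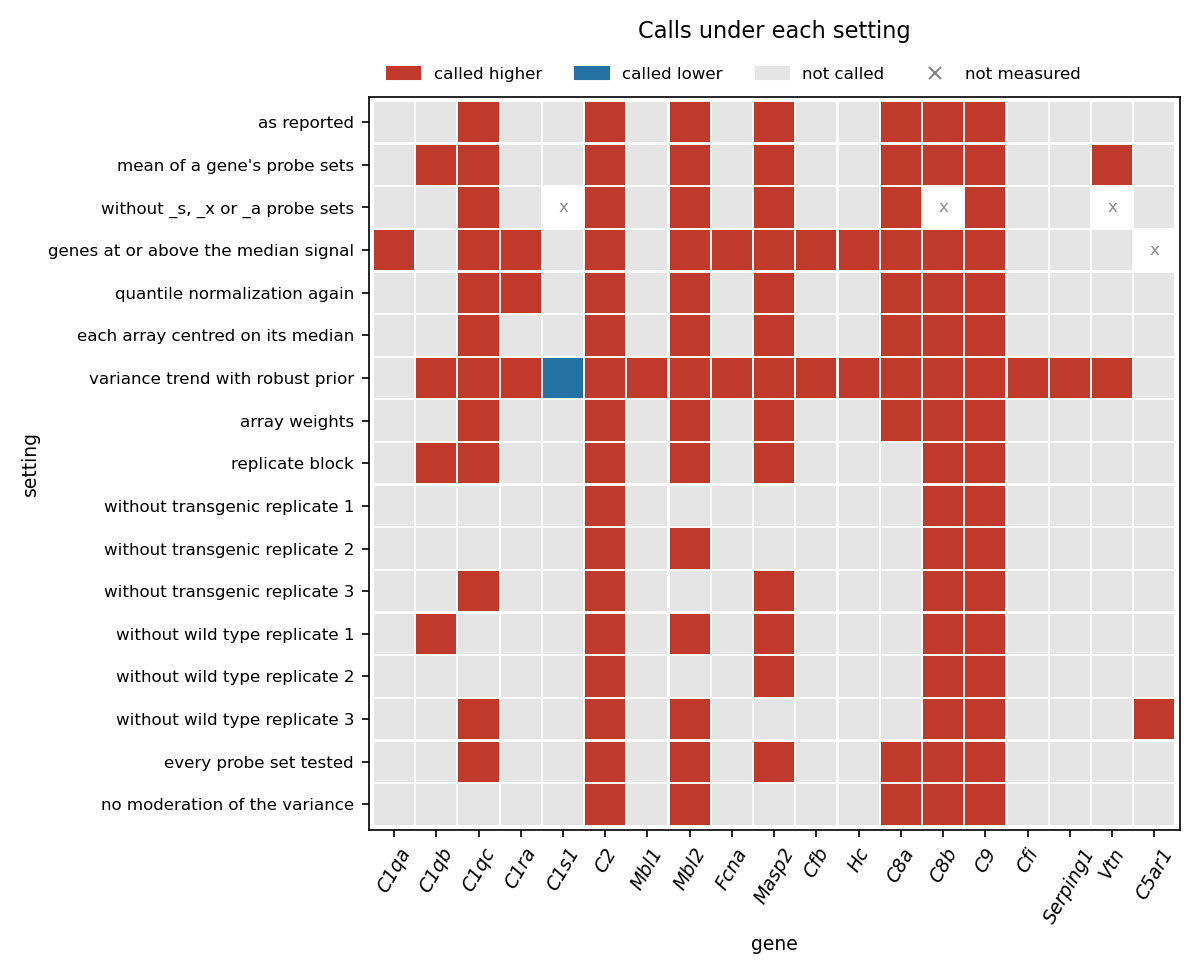
Calls for the 19 complement genes that passed under at least 1 of 17 settings (columns are genes, rows are settings), red for called higher, blue for called lower, grey for not called and a cross where the gene was not measured. The columns of C2, C8b and C9 are red in every row where they were measured, and the row with a variance trend and robust prior holds the only blue cell, C1s1.

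Several members are also expressed by cells other than hepatocytes, above all C1q chains, Fcna, Cfp, C3ar1 and C5ar1 in macrophages. In such bulk samples fewer cells of a type and less RNA per cell cannot be told apart. Of all genes tested, 6.83% were called higher and 9.05% lower. Among 20 measured Kupffer cell and macrophage markers (C1q genes left out), 3 rose (Marco, Ptprc and Mrc1), 2 fell (Cd163 and Cd14) and 15 were not called. Their summed linear signal ranged from 2463 to 2573 on transgenic and from 2453 to 2592 on wild-type arrays, which overlap. Their mean log2 signal was 6.36 to 6.42 against 6.21 to 6.29, which do not overlap, and 5 of the 20 were under the array medians throughout. The Kupffer cell lectin gene Clec4f differed by 0.06 and Csf1r, the receptor for macrophage growth factor, by -0.10, neither called. The part of these cells in the C1q and receptor values was not tested.

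Markers of other cell types were read in the same way, beside 6.83% of all genes called higher and 9.05% lower. At an unadjusted p under 0.05 these shares were 13.8% and 15.2%. None of 11 neutrophil markers was called (0 at an unadjusted p under 0.05 by limma), and all 11 were under the array medians. Of 13 sinusoidal endothelium markers 3 rose (Kdr, Clec4g and Bmp2), and the summed signal of the 13 was 1101 to 1180 against 915 to 1026. Of 13 stellate cell markers 1 rose, and of 8 B cell markers 2 fell, with summed signals of 1063 to 1143 against 999 to 1081 and of 351 to 363 against 645 to 699. The 2 B cell genes that fell were Ighm, at 6.79 against 8.59, and Ly6d, at 6.27 against 6.81. Ighm was the brightest of the 8 in both genotypes, so it weighs most in their sum. The other 6 were not called, and the median log2 difference of the 8 was -0.06. Of 6 adipocyte markers 1 fell (Cidec) and of 6 cholangiocyte markers 1 rose (Epcam), while 0 of 10 T and NK cell markers were called (1 at an unadjusted p under 0.05). The summed signals were 939 to 958 against 1024 to 1109 for adipocyte and 342 to 359 against 297 to 310 for cholangiocyte markers. For T and NK cell markers they were 276 to 285 against 263 to 284, which overlap. Of 12 hepatocyte markers 2 rose, Ahsg and Hp, and 10 were not called. The summed signal of the 12 was 229055 to 231468 against 220264 to 224545. Their mean log2 signal was 14.14 to 14.17 against 14.07 to 14.10, and neither measure overlapped between the genotypes. The part of these cells was not tested.

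Complement-related genes outside the 36 were read from a wider list, in which 25 of 38 were measured, 5 rose and 2 fell, beside 6.83% and 9.05% of all genes. Cd59a, which stops C9 from completing the pore, fell, at 9.77, 9.70 and 9.77 against 10.01, 9.98 and 9.91, a difference of -0.22 (SE 0.06, limma adjusted p = 0.0320). That call held under only 8 of 16 alternatives, and the values ran from -0.25 to -0.14. Crp, a pentraxin that binds C1q, rose by 0.32 (SE 0.05, limma adjusted p = 0.00500), and held under all 16. Itgb2, the beta chain of complement receptors on leukocytes, rose by 0.40 from a level under the overall median, and C1qtnf1, a C1q-domain protein with no role in the cascade, by 0.32. Both calls were lost under 8 alternatives each. The remaining changes were in genes that act on proteases or coagulation. A2m, a protease trap related to C3, rose by 0.55, at 5.40 against 4.85, under the overall median in both genotypes. Procr, the protein C receptor, rose by 0.58, and Thbd, thrombomodulin, fell by 0.31, a call lost under 6 of 16 alternatives. The recognition protein Apcs was at 13.04 against 13.06 and Cfhr2, related to factor H, differed by 0.14, neither called.

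A list of genes chosen by name as possible regulators of complement genes in liver gave 12 of 41 measured higher and 6 lower. Whether they control complement genes in these samples, and which cells express them, was not tested. The other 23 were not called, Tnf, Stat3, Socs3 and Rela among them. Over all genes 6.83% were called higher and 9.05% lower. Il6, the main inducer of acute phase genes, rose by 1.80, Il1b by 0.51 and Il1a by 0.71, all 3 under the overall median in wild-type cells, and the IL-1 receptor gene Il1r1 by 0.28. Socs1, a feedback inhibitor of STAT signalling, rose by 0.78, and the interferon pathway genes Irf9, Irf7, Ifngr2, Stat2 and Irf8 by 0.59, 0.53, 0.47, 0.38 and 0.33. Nfkbia, the NF-kB inhibitor, rose by 0.21. The calls of Irf8, Nfkbia, Il1a and Il1r1 were lost under 8, 7, 5 and 5 alternatives.

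The liver transcription factors in that list were mixed. Cebpb, the C/EBP factor of the acute phase, rose, at 12.44, 12.47 and 12.41 against 12.19, 12.14 and 12.26 (difference 0.24, limma adjusted p = 0.0259). Cebpa fell by 0.25 and Cebpd fell by 0.47. The calls of Cebpb and Cebpa were lost under 6 and 4 of 16 alternatives. Foxa1 had the largest fall on the list, at 6.62, 6.75 and 6.57 against 7.62, 7.73 and 7.75 (difference -1.05, SE 0.07, limma adjusted p = 6.06e-05). The nuclear receptor genes Ppara, Nr1h4 and Rxra fell by 0.77, 0.40 and 0.38. With probe sets averaged, Rxra gave -0.16 and its call was lost (limma adjusted p = 0.0658), and Ifngr2 gave 0.26. The calls of Ifngr2 and Il1b were each lost under 1 alternative, the fit with no moderation of the variance.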

How the data were processed

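Total RNA of 6 hepatocyte samples (3 per genotype) was labelled and hybridised to Affymetrix arrays. The deposited values are log2 signals. RMA and Affymetrix Expression Console are the tools that the submitters' processing notes name. RMA equalises distributions between arrays, so a change shared by most genes is removed. The sources used here do not say whether all arrays were normalized together. Arrays have no read depth, and their number limits the precision.

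Of 22690 probe sets, 64 were controls, 20380 carried 1 gene symbol, 691 several and 1555 none. Gene identifiers of all 31 measured members matched the reference table (GRCm38.p6) with the same symbol. Apart from calling genes bright or dim and summing marker signals, levels of different genes were not compared. Genotypes were compared with limma 3.58.1 (lmFit, eBayes, R 4.3.3), two-sided, Benjamini-Hochberg over 12393 genes, threshold 0.05. Adjacent members were compared by exact permutation (scipy 1.17.1). The procedure was run on simulated data with independent noise for each gene, which cannot show how effects shared by the genes of an array would act. Alternatives changed the choice of probe set, the signal filter, the normalization, the variance model, array weights, the replicate block and which array was left out. Members, groups by role and lists were chosen with earlier results of these data known. Every measured member is named, with per-array values for those past the threshold and, in groups with none, for the member with the smallest p. Other genes given per array were chosen after their values were seen. Since separate animals are not stated, p-values reflect only the spread among these arrays, which may be technical. No batch label was used.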

Additional observations from a re-analysis of the deposited data

How the results depend on the processing

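Over 16 alternatives none of the 7 called genes changed direction. The count of members called higher moved from 7 to 12 of 25 with only genes at or above the median signal and to 16 with a variance trend and robust prior, where 1 was lower in place of 0. Leaving out 1 array gave 3 to 6 higher and 0 to 0 lower, fewer samples by construction. Over all genes the calls were 846 higher and 1121 lower. With the variance trend and robust prior they were 1112 and 1504, and 967 and 1389 of the 7010 genes at or above the median signal. Without 1 array they were 540 to 739 higher and 727 to 961 lower, and 560 and 711 with no moderation of the variance. The replicate block gave 7 higher and 0 lower, with C8a replaced by C1qb. Between same-numbered arrays, deviations from the genotype mean correlated across genes by -0.01, -0.01 and 0.10. Of 6 arrays, 2 were closest to their own number. With 3 arrays per genotype these values cannot decide whether the numbers pair the samples. The median log2 difference over all members, 0.17, was 0.18 without probe sets ending in _s_at, _x_at or _a_at and 0.14 after quantile normalization again, and 0.14 to 0.18 without 1 array. By group, leaving out 1 array gave medians of 0.14 to 0.24 for the lectin arm, 0.18 to 0.22 for the terminal arm, -0.032 to 0.094 for the membrane regulators and 0.18 to 0.34 for the receptors. Averaging probe sets put the receptors at 0.14, the soluble regulators were at 0.034 without the probe sets named above, and the membrane regulators at -0.025 (1 gene left) at or above the median signal. Signs turned only for uncalled genes. Masp1 gave 0.015 with its probe sets averaged, 0.024 after quantile normalization, and -0.046 to 0.044 without 1 array, positive without transgenic replicate 3 or wild-type replicate 2. Cd55 gave -0.040 to 0.22 without 1 array, negative without transgenic replicate 2, and Cr2 gave -0.046 to 0.16, negative without wild-type replicate 2. The causes were not tested. Settings for genes outside the members and for the shared C4a and C4b probe set were added after seeing the data. Dim genes (Cfp, Cd46, Cd55, Cr2, C3ar1, C5ar1) lie nearer to background, which limits what a difference there can show.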
